A study of Homo sapiens with 4 samples.

Results

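The integrated stress response is followed here through 33 of its genes, in the prostate cancer lines 22Rv1 and PC3, treated or not with morusin, a prenylated flavone from mulberry root bark. The genes were chosen by name, from the ATF4 and CHOP branches of the response. All 33 symbols matched a single row of the table of 60617 Ensembl gene IDs. The groups were 22Rv1 with 75 µM morusin, 22Rv1 without it, PC3 with 46 µM and PC3 without it. Morusin was given for 6 h, each group held 1 library, and 22Rv1 was kept in RPMI and PC3 in F12 medium. Both lines are established tumour lines, 22Rv1 from a xenografted carcinoma and PC3 from a bone metastasis. Dose and medium cannot be told apart from the line.

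In this response, kinases that sense different stresses phosphorylate the translation initiation factor eIF2, which slows protein synthesis in general while the mRNA of the transcription factor ATF4 is translated more. ATF4, paired with C/EBP proteins, then switches on genes for amino acid synthesis, amino acid uptake and tRNA charging, and a second factor, CHOP, encoded by DDIT3. PPP1R15A, also called GADD34, brings a phosphatase to eIF2 and closes the loop. The measurements below are mRNA levels, so they do not read the phosphorylation of eIF2 or the amount of ATF4 protein.

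Expression was deposited as FPKM, fragments scaled to transcript length and to the library total, which is a level per length. Depth was inferred from the spacing of the lowest values. With M standing for mega, it came to 19.1 M read pairs in treated and 23.4 M read pairs in untreated 22Rv1, and to 28.6 M read pairs in treated and 40.6 M read pairs in untreated PC3. They are estimates: of the 948 to 1036 low values that a library held, 57 to 81 fell on the step taken as a read pair. The labels were checked with marker genes. Of 4 epithelial markers 4 were at 1 FPKM or more in both 22Rv1 libraries and 3 in both PC3 libraries, where CDH1 was at 0.144 FPKM treated and 0.19 FPKM untreated. Of 9 leukocyte, fibroblast and endothelial markers none reached that level in 22Rv1 and 3 did in PC3, led by CD68 at 39.9 FPKM treated and 26.0 FPKM untreated, and VWF and CDH5 were at 0 in all 4 libraries. The summed level of those 9 was 42.3 FPKM in treated and 30.1 FPKM in untreated PC3, and 1.52 FPKM in treated and 1.14 FPKM in untreated 22Rv1, and their part in the results was not tested.

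Changes are log2 ratios of FPKM + 1, morusin over untreated, for genes with at least 1 FPKM in 1 of the 2 libraries compared. With 1 library a group such a change has no replicate check and no p-value. A counting error was derived from the estimated read pairs. It applies to the ratio of plain FPKM on the log2 scale and covers counting only, with a median over the genes of 0.0485 in 22Rv1 and 0.0406 in PC3. The largest was 0.416, for CHAC1 in 22Rv1, which rested on about 15.8 read pairs treated and 50.6 untreated. VLDLR, a lipoprotein receptor gene known as an ATF4 target, was under 1 FPKM in every library, at 0.41 FPKM in treated and 0.491 FPKM in untreated 22Rv1 and at 0.472 FPKM in treated and 0.667 FPKM in untreated PC3, and is left out of all counts. The other 32 genes passed the filter in both lines.

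**Figure D1:**
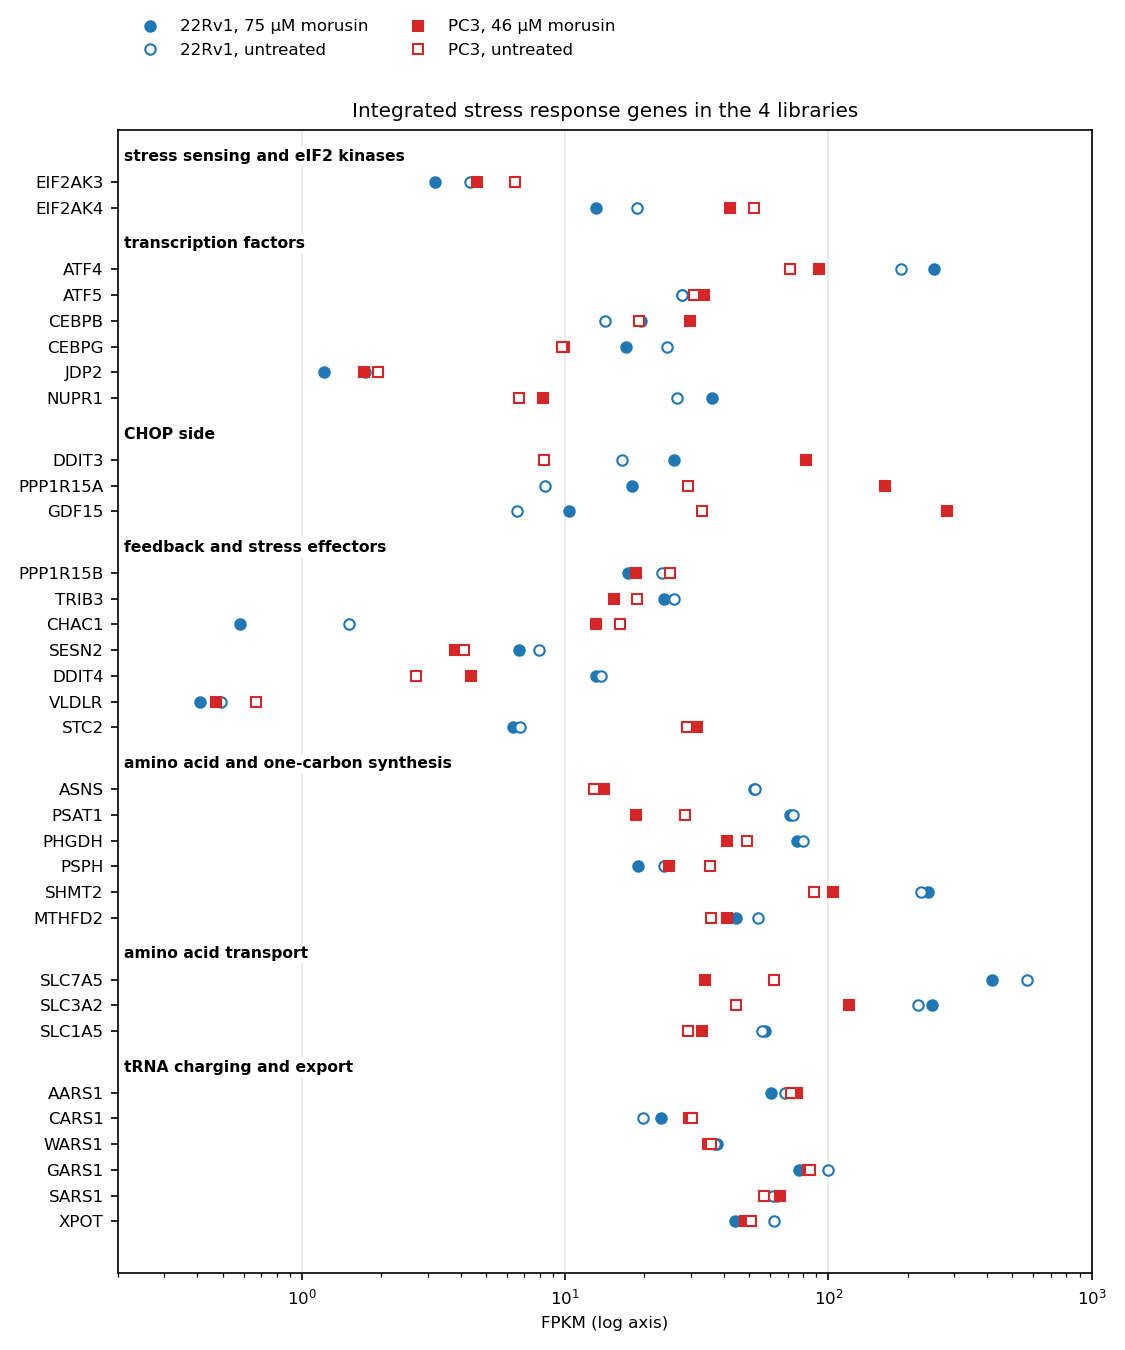
FPKM of the 33 genes (log axis) in the 4 libraries, grouped by role; filled symbols are morusin-treated and open symbols untreated, circles 22Rv1 and squares PC3, 1 library each. DDIT3, PPP1R15A and GDF15 in treated PC3 stand at 82.1, 163 and 281 FPKM, to the right of their other 3 libraries.

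DDIT3, PPP1R15A and GDF15 were higher in both treated lines, by far more in PC3. In 22Rv1 the changes of DDIT3 and GDF15, 0.63 and 0.59, lay below the 95th percentile of all genes there, 0.90. Most genes of amino acid synthesis, uptake and tRNA charging stayed within 2-fold, as did most of all genes. In PC3, 4 of the 32 genes were at least 2-fold higher (12.5%) and 0 were 2-fold lower. Across all 12907 genes used in that line the shares were 1.24% higher and 2.64% lower. The 4 were DDIT3, PPP1R15A, GDF15 and SLC3A2. The genes were chosen with earlier results of these data known, so the share is a description. Without DDIT3, PPP1R15A and GDF15, 1 of 29 was at least 2-fold higher in PC3 (3.45%) and 0 of 29 in 22Rv1. In 22Rv1, 1 of 32 was at least 2-fold higher, PPP1R15A, and 0 were 2-fold lower, against backgrounds of 3.48% and 1.02% of 13361 genes. That single gene is a share of 3.12%, close to the background. The median change over the 32 genes was 0.05 in PC3 and -0.07 in 22Rv1, beside -0.05 and -0.01 over all genes. In such bulk libraries fewer cells that express a gene and less of its RNA per cell cannot be told apart.

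DDIT3 encodes CHOP, a transcription factor that promotes cell death when stress persists (Ensembl ENSG00000175197, minus strand of chr12:57516588-57521737 in GENCODE 29 on GRCh38). DDIT3 stood at 82.1 FPKM in treated PC3, against 8.33 FPKM in untreated PC3. The 22Rv1 libraries had 25.9 FPKM treated and 16.4 FPKM untreated. The untreated level was thus lower in PC3 than in 22Rv1 and the treated level was higher there. Its log2 change was 3.15 in PC3 and 0.63 in 22Rv1, with counting errors of 0.0865 and 0.101. The exons of DDIT3 share 355 of 1307 bases with MARS1, a tRNA synthetase gene on the opposite strand, and 58 bases with MBD6, and no source used here says whether reads were counted by strand. MARS1 was at 66.6 FPKM in treated and 69.5 FPKM in untreated PC3, and MBD6 at 14.1 and 10.9 FPKM. In 22Rv1 MARS1 was at 85.6 FPKM treated and 70.7 FPKM untreated, and MBD6 at 25.4 and 16.4 FPKM, so that both were higher in that treated library, as DDIT3 was. A same-strand gene, AC022506.1, shares 105 bases with DDIT3 and was listed under 0.2 FPKM in all 4 libraries. The part of shared reads in the 22Rv1 value of DDIT3 was not tested.

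PPP1R15A is the stress-inducible subunit that directs protein phosphatase 1 to eIF2 (ENSG00000087074, plus strand of chr19:48872392-48876057). It was at 163 FPKM in treated and 29.2 FPKM in untreated PC3, a log2 change of 2.45. In 22Rv1 it was at 17.9 FPKM treated and 8.36 FPKM untreated, a log2 change of 1.01. The 22Rv1 value is at the edge of the 2-fold size, and with 5 FPKM added in place of 1 it was 0.78. PPP1R15B, the constitutive paralogue that recruits the same phosphatase, went the other way in both lines. It was at 18.6 FPKM in treated and 25 FPKM in untreated PC3, and at 17.3 FPKM in treated and 23.4 FPKM in untreated 22Rv1. Its log2 changes were -0.41 and -0.42, so treated PC3 had far more PPP1R15A than PPP1R15B mRNA per length and treated 22Rv1 about as much of each. The PPP1R15B transcript has 5227 bases, and longer transcripts tended to be lower across all genes. The part of length in its changes was not tested.

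GDF15 encodes a secreted cytokine of the TGF-beta family that many stresses induce (ENSG00000130513, plus strand of chr19:18374731-18389176). It was at 281 FPKM in treated and 33.1 FPKM in untreated PC3, a log2 change of 3.05 with a counting error of 0.0388. In 22Rv1 it was at 10.4 FPKM treated and 6.55 FPKM untreated, a log2 change of 0.59 with a counting error of 0.142. GDF15 was the most abundant of the 33 mRNAs per length in treated PC3, where PPP1R15A ranked 2 and SLC3A2 ranked 3. In untreated PC3 the first place was held by SHMT2 at 88.1 FPKM.

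These 3 genes were set apart by name with their values in these data known, so the separation from the metabolic genes is a description. Their median change was 3.05 in PC3 and 0.63 in 22Rv1, where the 95th percentiles of all genes were 0.51 and 0.90. The 15 genes of synthesis, transport and tRNA charging had medians of -0.03 and -0.04. The gap between the medians was 3.08 in PC3 and 0.67 in 22Rv1. Transcript length moved with the changes across all genes, with a Spearman correlation of -0.37 in PC3 over 12868 genes and -0.51 in 22Rv1 over 13310, which describes these libraries and has no p because genes are not replicates. Longer transcripts thus tended to be lower in both treated lines, and the changes given here are not adjusted for length unless stated. DDIT3 and GDF15 have short transcripts, of 940 and 1200 bases, and PPP1R15A has one of 2378 bases, beside a median of 2380 for all genes used in PC3. With a linear trend on length removed, an alternative chosen after seeing the data, the gap was 2.85 in PC3 and 0.46 in 22Rv1.

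**Figure D2:**
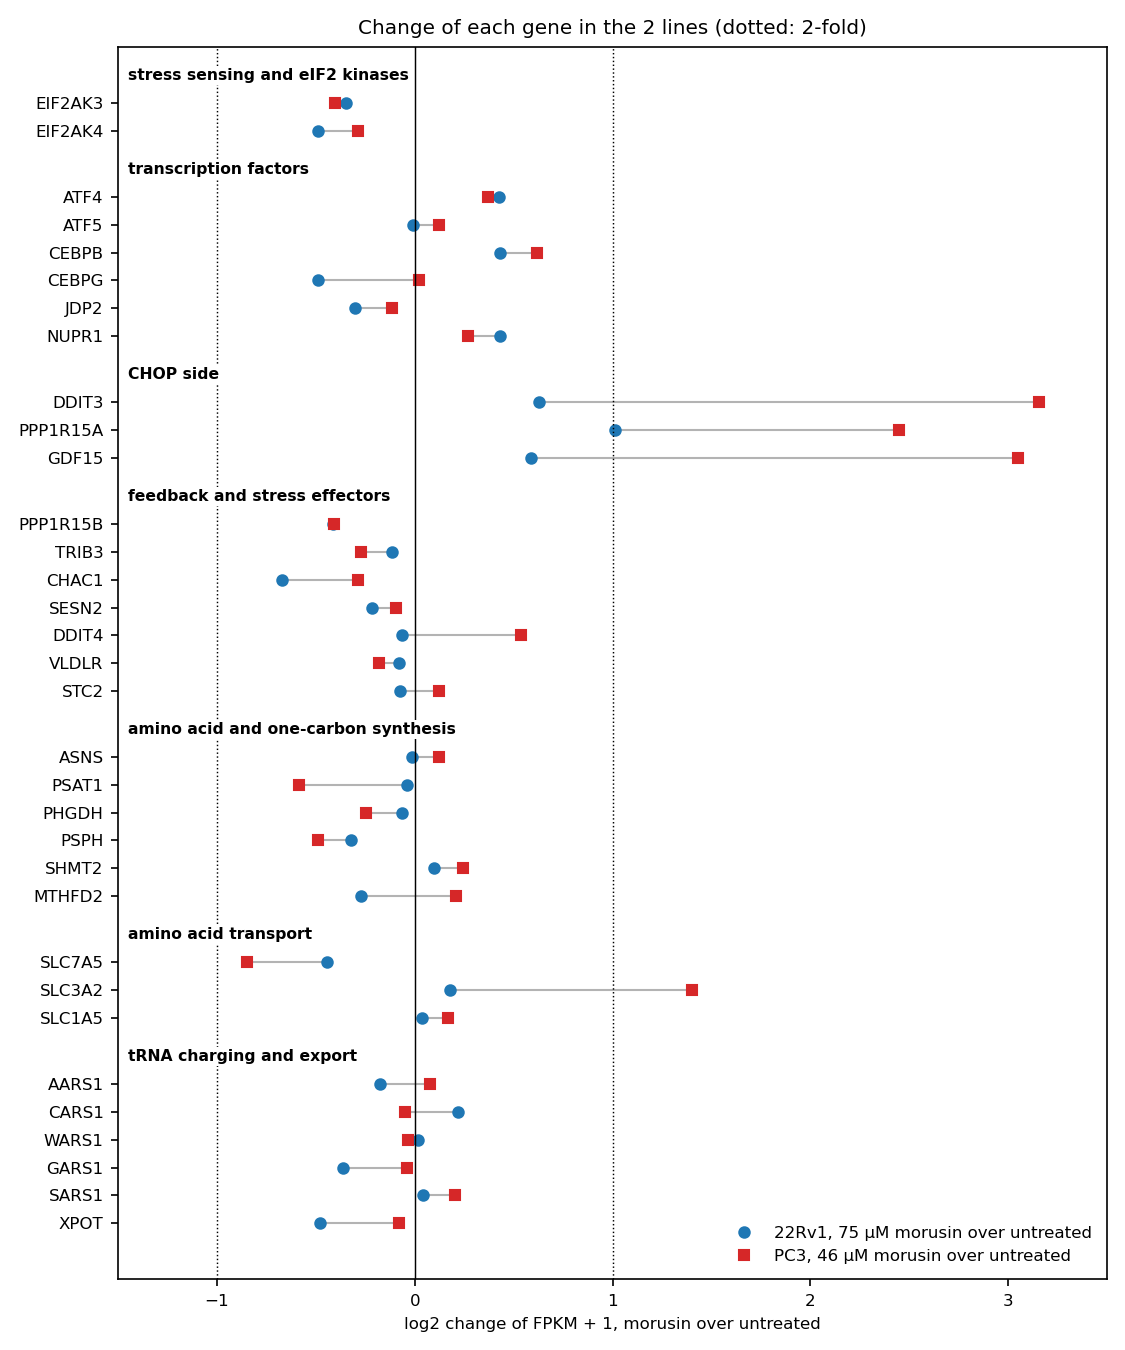
Log2 change of FPKM + 1, morusin over untreated, for each of the 33 genes by role, in 22Rv1 (circles) and PC3 (squares), with a grey line joining the lines' values and dotted lines at 2-fold. DDIT3, PPP1R15A, GDF15 and SLC3A2 lie to the right of 1 in PC3, and PPP1R15A also in 22Rv1 at 1.01.

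The kinase genes EIF2AK3 and EIF2AK4 were lower in both treated lines, each within 2-fold. EIF2AK3, or PERK, which senses unfolded protein in the endoplasmic reticulum, was at 4.63 FPKM in treated and 6.46 FPKM in untreated PC3. In 22Rv1 it was at 3.20 FPKM treated and 4.34 FPKM untreated. EIF2AK4, or GCN2, which senses uncharged tRNA, was at 42.4 FPKM in treated and 52.0 FPKM in untreated PC3, and at 13.1 FPKM in treated and 18.7 FPKM in untreated 22Rv1. The log2 changes of both kinases ran from -0.49 to -0.29. Their transcripts are long, of 4434 bases for EIF2AK3 and 3548 for EIF2AK4, and longer transcripts tended to be lower across all genes. The part of length in these changes was not tested.

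ATF4 mRNA was higher in both treated lines by less than 2-fold. It was at 92.1 FPKM in treated and 71.1 FPKM in untreated PC3, and at 253 FPKM in treated and 188 FPKM in untreated 22Rv1. The log2 changes were 0.37 and 0.42, alike in size where those of DDIT3 were far apart. ATF5, a relative that is translated by a like mechanism, was at 33.7 FPKM in treated and 30.8 FPKM in untreated PC3 and at 27.7 FPKM in treated and 27.9 FPKM in untreated 22Rv1. Its exons share 626 of 2954 bases with NUP62 on the opposite strand, a gene at 73.8 FPKM treated and 62.6 FPKM untreated in PC3, and at 45.6 FPKM treated and 55.4 FPKM untreated in 22Rv1.

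The C/EBP genes differed from each other. CEBPB was higher in both treated lines, at 29.8 FPKM treated and 19.1 FPKM untreated in PC3 and at 19.4 FPKM treated and 14.2 FPKM untreated in 22Rv1. CEBPG, which forms dimers with ATF4, was at 9.91 FPKM treated and 9.75 FPKM untreated in PC3, and at 17.1 FPKM treated and 24.4 FPKM untreated in 22Rv1. NUPR1, a small stress-induced chromatin protein, was at 8.23 FPKM treated and 6.65 FPKM untreated in PC3, and at 36.0 FPKM treated and 26.5 FPKM untreated in 22Rv1. JDP2, a repressor of the AP-1 family, was below 2 FPKM in all libraries, with log2 changes of -0.12 in PC3 and -0.30 in 22Rv1.

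Of the 6 measured feedback and effector genes, PPP1R15B among them, 0 were at least 2-fold higher or lower in either line on the FPKM + 1 scale. Of all genes, 1.24% were higher and 2.64% lower by that size in PC3, and 3.48% and 1.02% in 22Rv1. With 6 genes, a count of 0 is close to those shares. In PC3 4 of the 6 were below 0 (66.7%, against 55.8% of all genes), with a median of -0.18. In 22Rv1 all 6 were (50.6% of all genes), with a median of -0.17. TRIB3, a pseudokinase and textbook CHOP target, was at 15.3 FPKM in treated and 18.7 FPKM in untreated PC3. Its level in 22Rv1 was 23.8 FPKM treated and 25.9 FPKM untreated. CHAC1, which breaks down glutathione, was at 13.1 FPKM in treated and 16.1 FPKM in untreated PC3, and at 0.581 FPKM in treated and 1.51 FPKM in untreated 22Rv1. SESN2, a sestrin that restrains mTORC1, had log2 changes of -0.09 in PC3 and -0.22 in 22Rv1. STC2, a secreted glycoprotein, was at 31.6 FPKM in treated and 28.9 FPKM in untreated PC3, with 6.31 FPKM in treated and 6.71 FPKM in untreated 22Rv1. DDIT4, or REDD1, another inhibitor of mTORC1, was at 4.40 FPKM in treated and 2.72 FPKM in untreated PC3. Its log2 change there was 0.54, and in 22Rv1 it was -0.07.

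The amino acid synthesis genes stayed within 2-fold in both lines, as did most of all genes. ASNS, asparagine synthetase, was at 14.0 FPKM in treated and 12.8 FPKM in untreated PC3, and at 52.3 FPKM in treated and 52.7 FPKM in untreated 22Rv1. The 3 genes of the serine pathway were lower in treated PC3, each within 2-fold, and in 22Rv1 the 95% counting intervals of PSAT1 and PHGDH included 0. PSAT1 was at 18.6 FPKM treated and 28.4 FPKM untreated in PC3, a log2 change of -0.58, and at 71.5 and 73.4 FPKM in 22Rv1. PHGDH, the first enzyme of the pathway, and PSPH, the last, had log2 changes of -0.25 and -0.49 in PC3 and -0.07 and -0.32 in 22Rv1. The mitochondrial folate enzymes SHMT2 and MTHFD2 had changes of 0.24 and 0.21 in PC3 and 0.10 and -0.27 in 22Rv1.

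SLC3A2 and SLC7A5 encode the heavy and light chains of a single transporter for large neutral amino acids. SLC3A2 (ENSG00000168003, plus strand of chr11:62856102-62888875) was at 120 FPKM in treated and 44.6 FPKM in untreated PC3, a log2 change of 1.40. SLC7A5 was at 34.0 FPKM in treated and 62.1 FPKM in untreated PC3, a log2 change of -0.85. The heavy chain mRNA was thus below the light chain mRNA per length in untreated PC3 and above it in treated PC3. In 22Rv1 SLC3A2 was at 249 FPKM treated and 220 FPKM untreated, and SLC7A5 at 417 FPKM treated and 567 FPKM untreated, so the light chain led in both libraries. Transcript lengths were 2038.5 bases for SLC3A2 and 4260 for SLC7A5, and the part of length in their changes was not tested. The change of SLC3A2 in 22Rv1 was 0.18, and it was -0.02 with all libraries set to an equal FPKM sum. SLC1A5, a glutamine transporter, was at 33 FPKM treated and 29.2 FPKM untreated in PC3 and at 57.5 FPKM treated and 56.1 FPKM untreated in 22Rv1.

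The 5 tRNA synthetase genes among the 33, and XPOT, the exporter of tRNA from the nucleus, had log2 changes between -0.08 and 0.21 in PC3. In 22Rv1 they ran from -0.48 for XPOT to 0.22 for CARS1. AARS1 was at 75.8 FPKM treated and 71.8 FPKM untreated in PC3 and at 60.5 FPKM treated and 68.5 FPKM untreated in 22Rv1. WARS1 differed little in both lines, with changes of -0.03 in PC3 and 0.02 in 22Rv1. GARS1 was at 83.3 FPKM treated and 85.4 FPKM untreated in PC3 and at 77.2 FPKM treated and 99.5 FPKM untreated in 22Rv1, and SARS1 had log2 changes of 0.21 and 0.04.

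Promoters were read for the short DNA element that ATF4 and C/EBP dimers bind, called CARE, through which ATF4 is known to act. RefSeq promoter sequences on GRCh38.p14, from 250 bases before to 50 after a start site, were found for 30 of the 33 genes, and none was listed for SHMT2, PSPH and NUPR1. The core TGATGNAAN was looked for on both strands. It was in 10 of the 30 (33.3%), against 4.45% of all 27305 genes with a promoter. The 10 were AARS1, ASNS, CARS1, CEBPG, CHAC1, GARS1, JDP2, PPP1R15B, SLC1A5 and SLC3A2. Some of these sites are shown 5′ to 3′ on the strand that carries the motif, to show the letters themselves. The motif is in capitals, with 10 bases on each side where the window allows. Of these 7 genes all but SLC3A2 stayed within 2-fold in both lines on the FPKM + 1 scale, as did most of all genes. On plain FPKM, CHAC1 in 22Rv1 had a ratio of 0.384, treated over untreated.
ASNS, minus strand of chr7:97872458-97872486: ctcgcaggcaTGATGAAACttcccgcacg
CHAC1, minus strand of chr15:40953251-40953279: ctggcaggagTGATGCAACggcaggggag
CEBPG, plus strand of chr19:33374061-33374089: gcgcggcgtcTGATGCAACctgccggcaa
AARS1, plus strand of chr16:70289676-70289704: ctaacttggcTGATGCAACtgcgagaaaa
SLC1A5, minus strand of chr19:46784893-46784921: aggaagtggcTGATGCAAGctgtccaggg
PPP1R15B, minus strand of chr1:204412026-204412054: ccgccccggcTGATGCAACctcacgctgc
SLC3A2, minus strand of chr11:62881725-62881748: ggagcTGATGTAAGgagtcctgca
Of the 10 genes with a CARE match, 1 was at least 2-fold higher in PC3 (10%, background 1.24%), SLC3A2, and 0 in 22Rv1 (background 3.48%). Their median change was -0.01 in PC3 and -0.24 in 22Rv1. Of the 19 measured genes with a promoter and no match, 3 reached 2-fold above untreated in PC3 (15.8%), with a median of 0.12. In 22Rv1 1 did (5.26%), with a median of -0.07. The 3 in PC3 were DDIT3, PPP1R15A and GDF15, which were set apart with their values known, and the 1 in 22Rv1 was PPP1R15A. No match says only that these letters were not in the window read.

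For those genes 2 further motifs were looked for after their values were known, on both strands. They were the cyclic AMP response element TGACGTCA, present in 2.25% of genes with a promoter, and a loose AP-1 pattern, TGANTCA, present in 9.37%. The AP-1 element itself has C or G at N, where the pattern took any base. PPP1R15A was the 1 of 30 genes with the first, from 58 to 51 bases before its start site. DDIT3 and SLC3A2 had the second, as did ATF5 and EIF2AK4, and GDF15 had neither. The letters were TGACTCA in DDIT3, SLC3A2 and ATF5, and TGATTCA in EIF2AK4, which is not the AP-1 element itself. A match is a description of letters and not of binding. The promoter of PPP1R15A up to its first GENCODE exon and the AP-1 windows of DDIT3 and SLC3A2 are shown with the motif in capitals, as the sequences beside the genes with the widest changes.
PPP1R15A, plus strand of chr19:48872171-48872391: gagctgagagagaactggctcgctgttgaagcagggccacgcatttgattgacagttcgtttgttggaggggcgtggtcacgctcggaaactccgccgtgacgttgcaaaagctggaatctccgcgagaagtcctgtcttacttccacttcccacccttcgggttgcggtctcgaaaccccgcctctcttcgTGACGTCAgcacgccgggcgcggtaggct
DDIT3, minus strand of chr12:57520739-57520764: gcgcgcgcaTGACTCAcccacctcct
SLC3A2, plus strand of chr11:62881652-62881678: cgagggtgggTGACTCAgcgtcctcct

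Whether the lines shared a response was tested with limma over all 4 libraries, with the line and the treatment as terms and 13980 genes. No gene of the set passed an adjusted p of 0.05 in either direction, where 0.351% of all genes did so as higher and 0.236% as lower. At an unadjusted p under 0.05 there were 5 higher and 1 lower of 32 (18.8%), close to the 18.5% of all genes at that p. The smallest adjusted p was 0.0526, for PPP1R15A, with a mean log2 change of 1.73 (SE 0.305) and a higher value in both treated lines. DDIT3 and GDF15 had mean changes of 1.89 (SE 0.464) and 1.82 (SE 0.452), with limma adjusted p of 0.125 and 0.126. SLC7A5, the 1 that was lower, had -0.65 (SE 0.188) with a limma adjusted p of 0.152. CEBPB and SLC3A2 were the other two at that unadjusted level, with 0.52 and 0.79. These calls depended on scaling. With all libraries set to an equal FPKM sum, PPP1R15A, DDIT3, GDF15 and SLC3A2 passed as higher and SLC7A5 as lower, with limma adjusted p from 1.42e-06 to 0.0363. Under that rescaling 1234 genes of all were called lower and 300 higher, against 33 and 49 before, and the median change of all genes moved to -0.15. With no filter on low values, or with no line term, no gene of all passed, and the adjusted p of these 5 genes then reached up to 0.999997.

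**Figure D3:**
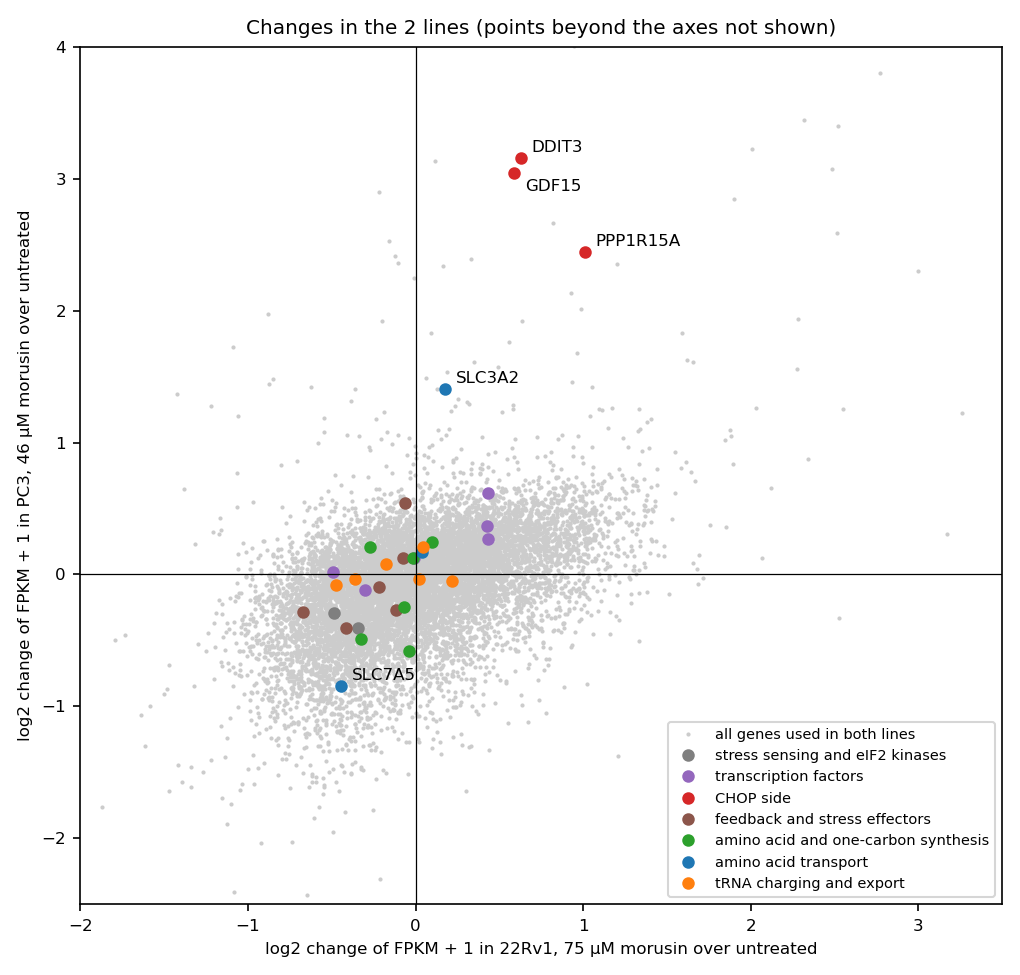
Log2 change of FPKM + 1 in PC3 (vertical axis) against 22Rv1 (horizontal axis), with all 11240 genes used in both lines in grey and the 32 measured genes in colour by role. DDIT3, GDF15 and PPP1R15A sit at 3.15, 3.05 and 2.45 on the PC3 axis, and most of the rest lie within 0.5 of 0 on both axes.

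The gap between the lines' responses was taken as the change in PC3 minus that in 22Rv1, which leaves no residual degrees of freedom and so no test. Of the 32 genes, 4 had a gap of at least 1 log2 unit towards PC3 (1.03% of all 11240 genes used in both lines had one) and 0 towards 22Rv1 (background 3.19%). The gaps were 2.53 for DDIT3, 2.46 for GDF15, 1.43 for PPP1R15A and 1.23 for SLC3A2. DDIT3, GDF15 and PPP1R15A were set apart with their values known, so this count is a description. In the other direction the widest was -0.55 for PSAT1. Of the 32 genes 10 were above 0 in both lines (31.2%, background 30.2%), 13 below 0 in both (40.6%, background 37.7%) and 9 differed in sign (28.1%, background 32.2%), shares close to those of all genes. Within 0.5 of 0 were 24 in PC3 (75%, background 80%) and 28 in 22Rv1 (87.5%, background 69.8%).

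Other genes of the pathway, 68 in all, were listed by role and described in the same way. In PC3, 64 passed the filter, of which 3 were at least 2-fold higher (4.69%, background 1.24%) and 2 at least 2-fold lower (3.12%, background 2.64%). In 22Rv1 67 passed, with 0 higher and 1 lower by that size (1.49%, background 1.02%). ATF3, a stress-induced repressor that ATF4 and other pathways induce, was at 29.5 FPKM in treated and 5.40 FPKM in untreated PC3, a log2 change of 2.25. In 22Rv1 it was at 10.7 FPKM treated and 10.8 FPKM untreated. NDRG1, a stress-responsive gene also linked to hypoxia, was at 28.8 FPKM in treated and 13.6 FPKM in untreated PC3, and at 8.51 FPKM in treated and 9.96 FPKM in untreated 22Rv1. TNFRSF10B, the death receptor DR5 and a known CHOP target, was at 19.7 FPKM in treated and 40.4 FPKM in untreated PC3, and in 22Rv1 at 14.2 FPKM treated and 14.0 FPKM untreated. Its PC3 change of -0.997, just inside 2-fold on the FPKM + 1 scale, thus lay opposite to that of DDIT3. On plain FPKM its ratio in PC3 was 0.489.

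**Figure D4:**
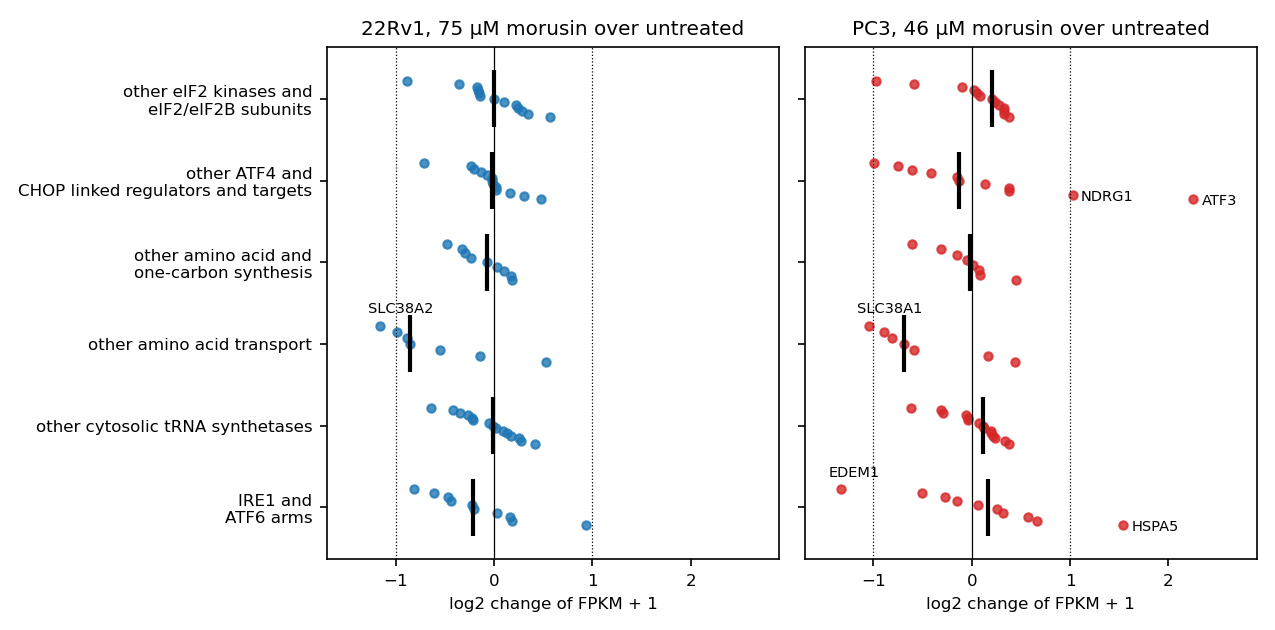
Log2 change of FPKM + 1 of the other pathway genes that passed the filter, by role, in 22Rv1 (left) and PC3 (right); each point is 1 gene, the black bar the median of its role and the dotted lines 2-fold. The amino acid transporters have medians of -0.86 in 22Rv1 and -0.69 in PC3, and ATF3 stands at 2.25 in PC3.

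The other amino acid transporters were lower in both treated lines more often than not. In PC3 5 of 7 were below 0 (55.8% of all genes were), with a median of -0.69, and in 22Rv1 6 of 7 were (50.6% of all genes), with a median of -0.86. SLC38A2, a transporter for small neutral amino acids that amino acid shortage induces, was at 159 FPKM treated and 258 FPKM untreated in PC3. In 22Rv1 it was at 58.4 FPKM treated and 131 FPKM untreated. SLC38A1, its close relative, was at 45.1 FPKM treated and 93.7 FPKM untreated in PC3 and at 42.7 FPKM treated and 78.2 FPKM untreated in 22Rv1. SLC7A1, for cationic amino acids, and SLC7A11, the cystine antiporter, had log2 changes of -0.89 and -0.82 in PC3 and -0.98 and -0.88 in 22Rv1. SLC43A1 was higher in both treated lines, with 0.44 and 0.53. None passed the shared test, with limma adjusted p of 0.0772 for SLC38A1, 0.0982 for SLC38A2 and 0.102 for SLC7A1. These 3 and SLC7A11 passed after the rescaling. Their transcripts ran from 2802 to 9645 bases, and with the length trend removed their log2 changes ran from -0.97 for SLC38A1 to -0.52 for SLC7A11 in PC3, and from -1.11 for SLC38A2 to -0.45 for SLC7A11 in 22Rv1.

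The other 15 cytosolic tRNA synthetases had no member at 2-fold, with a median of 0.12 in PC3 and -0.01 in 22Rv1. The other synthesis genes likewise had none, with medians of -0.02 and -0.08. Of all genes, 1.24% were higher and 2.64% lower by that size in PC3, and 3.48% and 1.02% in 22Rv1. In groups this small, counts of 0 are close to those shares. Of the kinases not among the 33, EIF2AK2, or PKR, which senses double-stranded RNA, was at 14.9 FPKM treated and 22.8 FPKM untreated in PC3 and at 4.39 FPKM treated and 8.98 FPKM untreated in 22Rv1. EIF2AK1, or HRI, which senses haem and mitochondrial stress, had changes of 0.28 in PC3 and -0.15 in 22Rv1. GCN1, the ribosome-bound activator of GCN2, was at 24.6 FPKM in treated and 49.5 FPKM in untreated PC3 and had a change of -0.14 in 22Rv1. In the other branches of the unfolded protein response, HSPA5, the chaperone BiP, was at 321 FPKM treated and 110 FPKM untreated in PC3 and at 199 FPKM treated and 174 FPKM untreated in 22Rv1. EDEM1, a factor in the degradation of misfolded proteins, was at 3.52 FPKM treated and 10.4 FPKM untreated in PC3 and at 4.82 FPKM treated and 7.06 FPKM untreated in 22Rv1. XBP1, the factor spliced by IRE1, was at 31.9 FPKM treated and 25.5 FPKM untreated in PC3, and at 38.9 FPKM treated and 45.4 FPKM untreated in 22Rv1.

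Before treatment the 32 genes differed between the lines about as often as all genes did. Of the 32 measured, 9 were at least 2-fold higher in untreated 22Rv1 (28.1%, background 19.8% of 14363 genes) and 5 at least 2-fold higher in untreated PC3 (15.6%, background 19.2%). SLC7A5 had the widest gap, at 567 FPKM in untreated 22Rv1 and 62.1 FPKM in untreated PC3. SLC3A2, SHMT2, ASNS, PSAT1, ATF4, CEBPG, NUPR1 and DDIT4 were the others that led in 22Rv1, with log2 ratios from 1.24 to 2.27. CHAC1 had the widest gap the other way, at 1.51 FPKM in untreated 22Rv1 and 16.1 FPKM in untreated PC3. GDF15, STC2, PPP1R15A and EIF2AK4 also led in PC3, with log2 ratios from -2.18 to -1.43. The 15 metabolic genes had a median ratio of 0.59, with 3 below 0 (20%, against 46.1% of all genes), and the tRNA group alone stayed within 2-fold throughout.

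**Figure D5:**
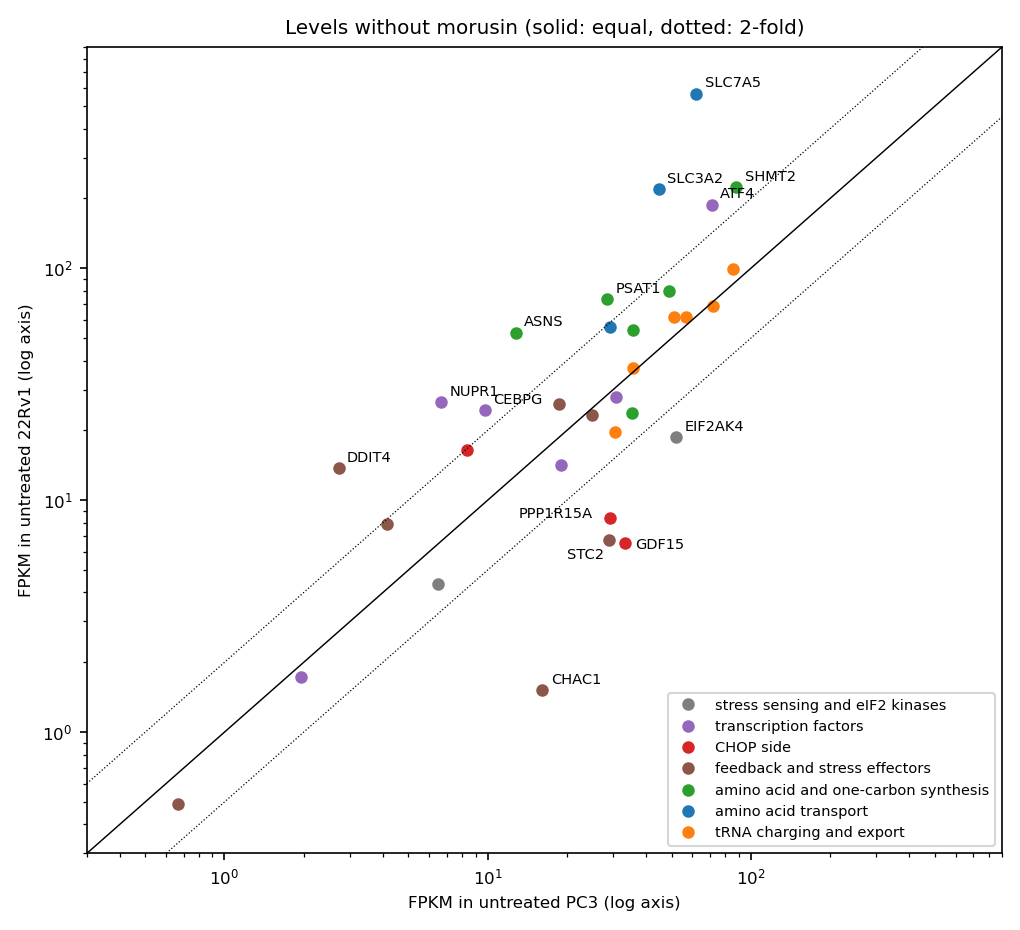
FPKM of the 33 genes in untreated 22Rv1 (vertical, log axis) against untreated PC3 (horizontal, log axis), coloured by role, with the line of equal levels and dotted lines at 2-fold of FPKM. Names mark the genes at least 2-fold apart on the FPKM + 1 scale, from SLC7A5 at 567 against 62.1 FPKM to CHAC1 at 1.51 against 16.1 FPKM.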

How the data were processed

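Per the labels' protocols, total RNA was made into TruSeq RNA v2 libraries and read as pairs. The submitters' processing notes name Trimmomatic, HISAT2, StringTie and GRCh38. Versions, annotation release and strand use are not stated there. The authors deposited FPKM, so no count test was used. FPKM is relative to each library's total, so abundant transcripts move all other values. Symbols came from a gene name table (60261 of 60617 IDs matched), positions and lengths from GENCODE 29. Depth came from single-exon genes of 600 to 5000 bases (tolerance 1.5%). The members, lists and role groups were chosen with earlier results of these data known. Named in full were genes at least 2-fold changed with 5 FPKM or more, DDIT3, PPP1R15A, GDF15, ATF4, ATF5 and the kinases. The shared test used limma 3.58.1 (R 4.3.3) on log2(FPKM + 1), genes with 1 FPKM in at least 2 libraries, a mean trend and Benjamini-Hochberg adjustment at 0.05. The labels pair a treated with an untreated library by line, which was the block. With 1 pair a line, its p-values measure the spread between 2 lines. On simulated libraries with noise SD 0.25 and 14065 genes it called 50 of 50 genes at 2 log2 units and 50 of 50 at -2. It called 34 of 50 at 1, 37 of 50 at -1 and 14 of 13865 unchanged. On the values as deposited, DDIT3 and GDF15 had mean changes of 1.89 and 1.82 and were not called. Their changes in PC3 and 22Rv1 lay 2.53 and 2.46 log2 units apart. How often genes whose lines differ by that much are called was not tested. Python 3.11.15, numpy 2.4.6, pandas 2.3.3 and matplotlib 3.10.9 were used. Other pseudocounts, filters, scalings and motif definitions were tried. The result of 1 further marker list is not reported here.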

Additional observations from a re-analysis of the deposited data

Results flagged for a closer look

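For 3 genes, among the 33 and the 68 other pathway genes, the changes in the lines had opposite signs. Each change was at least 0.2 log2 units and beyond the 95% counting interval. MTHFD2 was from the 33, and NDRG1 and XBP1 from the others. The share of all genes under this rule was not computed. With no rule on size or interval, 32.2% of the 11240 genes used in both lines had opposite signs. The difference between the lines was not tested, since each line has 1 library a group. For MTHFD2, a mitochondrial folate enzyme, the change in PC3 minus that in 22Rv1 was 0.48, from 0.21 in PC3 and -0.27 in 22Rv1. Its PC3 change was just above the minimum of 0.2. Rescaling to equal FPKM sums moved the median of all genes in PC3 from -0.05 to -0.14. For NDRG1 the difference was 1.23, from 1.03 and -0.20. For XBP1 it was 0.53, from 0.31 and -0.22.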

How the results depend on the processing

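In PC3 the count of members at least 2-fold higher was 4 under every alternative run. The count with a CARE match was 10 in the main setting and from 7 to 10 under the other motif definitions and windows. In 22Rv1 the count of members at least 2-fold higher was 0 with a pseudocount of 5 and 0 after rescaling to equal FPKM sums. Of all genes, 151 of 13361 and 255 of 13253 were higher in those settings. With a pseudocount of 0.1, 1 member was at least 2-fold lower, CHAC1, as were 376 of all 13361 genes. Of the other pathway genes, those at least 2-fold lower in 22Rv1 were 4 with a pseudocount of 0.1 and 5 after rescaling. Of all genes, 376 of 13361 and 351 of 13253 were lower in those settings. In PC3 the other pathway genes lower by that size were 6 with a pseudocount of 0.1, 0 with 5 and 4 after rescaling. They were 1 after median centring and 1 with the length trend removed. All genes lower in PC3 numbered 680, 85, 472, 281 and 261 in the same order, of 12868 to 13024 used. The gap between CHOP side and metabolic medians in PC3 was 2.74 with a pseudocount of 5 and 2.85 with the length trend removed. In the shared test 4 members were higher and 1 lower after rescaling, and none under the other alternatives, among them the fit with no replicate block, in which no gene of all was called either. The degrees of freedom behind the limma test, prior included, were 51.8 after rescaling and 8.95 as deposited; the cause was not tested. The median of all genes after rescaling was -0.18 in 22Rv1 and -0.14 in PC3, and the share of 2-fold calls that were higher was 42.1% against 77.4% as deposited in 22Rv1. No library could be left out, because each group has 1. Low genes such as CHAC1 in 22Rv1 are limited by depth.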

Other observations

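Pseudogenes named after the members were mostly near 0, with exceptions for SLC7A5, PSPH and ATF4. SLC7A5P1, a copy of part of that transporter gene, was at 4.73 FPKM in treated and 2.38 FPKM in untreated PC3, and at 10.7 FPKM in treated and 4.63 FPKM in untreated 22Rv1. SLC7A5P2 was at 0.845 FPKM treated and 0.0424 FPKM untreated in PC3 and at 1.97 FPKM treated and 0.914 FPKM untreated in 22Rv1. Both copies were thus higher in the treated libraries, while SLC7A5 itself was lower in both. PSPHP1, named after PSPH, was at 1.59 FPKM treated and 0.649 FPKM untreated in PC3 and at 0.726 FPKM treated and 0.199 FPKM untreated in 22Rv1, while PSPH was lower in both treated lines. ATF4P3 reached at most 1.12 FPKM, in treated 22Rv1. Reads can be split between such copies, so these values are uncertain. GARS-DT, a transcript that shares exon bases with GARS1 on the opposite strand, was at 16.2 FPKM treated and 10.3 FPKM untreated in 22Rv1, where GARS1 was lower, and at 3.58 FPKM treated and 3.53 FPKM untreated in PC3.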
